A study of Mus musculus with 4 samples.

Results

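The genes described here encode the enzymes that interconvert alcohols, aldehydes, ketones and acids in the mouse small intestine: aldehyde dehydrogenases (Aldh), alcohol dehydrogenases (Adh), aldo-keto reductases (Akr), carbonyl reductases (Cbr) and the short-chain Dhrs and Rdh enzymes. They were chosen by name alone: every symbol beginning with Aldh, Dhrs or Rdh, or with Adh, Akr or Cbr followed by a digit. Of 21153 named genes on the array, 71 were members, and 58 of them were among the 14395 genes that gave enough signal to be tested. Total RNA of small intestine from wild-type mice and from Cyp3a-/- mice, which lack the Cyp3a gene cluster encoding drug- and steroid-oxidising cytochrome P450 enzymes, was hybridised, as Cy3-labelled cRNA, to Agilent arrays of a single colour. Each genotype had 2 arrays, called wild type 1 and 2 and knockout 1 and 2. The submitters state that the experiment was run 2 times with different animals. The sources used here give neither strain, age, sex or intestinal segment nor the number of animals behind an array, and the deletion is carried by the whole animal rather than by the intestine alone.

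Aldehydes and ketones arise in the gut from food, alcohol, oxidised lipids and microbes, and the members remove them by oxidation to acids or reduction to alcohols. In the retinoid pathway, alcohol and retinol dehydrogenases convert vitamin A alcohol to retinal, Dhrs3 and related enzymes convert it back, and the Aldh1a enzymes make retinoic acid, a ligand of nuclear receptors. Aldo-keto and carbonyl reductases also act on steroids, prostaglandins, quinones and drugs. Several members are expressed in absorptive enterocytes, and some are known targets of the stress sensor NRF2 or of the drug sensors PXR and CAR.

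A level is the log2 processed signal of a gene's probe minus that array's 75th percentile, so that 1 unit is a 2-fold difference. Between 55.1% and 64.4% of 39429 probes were well above background per array, the 75th percentile of signal lay between 175 and 356, and no probe was saturated. As a check of the labels, all 7 Cyp3a genes tested were well above background on both wild-type arrays. Their levels ran from -0.15 to 5.78 there and -6.76 to -0.53 on the knockout arrays, where 1 of 7 was still above background. Knockout 1 stood apart from the rest over all genes, with correlations of 0.948 to knockout 2 and 0.962 to 0.966 to the wild-type arrays, against 0.979 to 0.981 among the other 3 arrays. Wild type 2 and knockout 1 shared a slide, and the difference between these 2 arrays is given below as the value within the slide, with no test. With 2 arrays a genotype the smallest two-sided p an exact permutation test can give is 0.333, and p-values from the linear model measure only the spread between these arrays.

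No member differed between the genotypes at an adjusted p under 0.05 in limma. Members called higher numbered 0 of 58, beside 0% of all genes tested, and members called lower numbered 0 of 58, beside 0.0417% of all genes, which were 6 Cyp3a genes. Without adjustment, 0 of 58 members had p under 0.05, beside 0.438% of all genes. The members' differences, knockout minus wild type, had a median of 0.17 and ran from -1.70 to 0.93, and 42 of 58 were above 0. Over all genes the median was 0.04, and 8096 of 14395 were above 0. In data simulated from these arrays, the same model recovered 3.6% of genes changed 2-fold and 68.2% of genes changed 4-fold. The members' differences were mostly under 2-fold. The simulated noise was independent between genes and of the same size on all arrays, so it left out the departure of knockout 1 from the other arrays. Leaving out knockout 2, 1 member was called higher (Akr1b7) and 2 lower (Aldh1l2 and Cbr2). Over all genes that setting called 0.938% higher and 2.07% lower, so these counts of 58 are near the background.

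The knockout arrays differed from each other more than the genotypes did. For 51 of 58 members (87.9%) the gap between the knockout arrays was larger than the difference between the genotype means, beside 80.7% of all genes. A gap between single arrays varies more than a difference between means of 2 arrays. It therefore tends to be the larger of these even without a genotype effect. The median gap between the knockout arrays was 0.72 over the members and 0.45 over all genes, whereas the wild-type arrays were 0.34 and 0.30 apart. Relative to the wild-type mean, the members' median was 0.46 on knockout 1 and -0.06 on knockout 2, beside 0.03 and 0.04 over all genes. Within the slide shared by knockout 1 and wild type 2, the members' median difference was 0.62, beside 0.08 over all genes, and 8 of 58 members changed sign: Adh4, Aldh1a3, Aldh3a1, Aldh4a1, Cbr4, Dhrs13, Rdh9 and Rdh16f2. Under median scaling in place of the 75th percentile the knockout 1 median was 0.59 for the members and 0.16 for all genes, and under quantile scaling it was 0.45 and 0.02. A normexp background correction, a model of signal and noise in each array, gave a members' median difference of -0.09 and turned the medians of 5 of 6 families and 2 of 4 pathway lists below 0. Its fit to knockout 2 gave a background mean of -335, against 20.4 to 23.7 on the other arrays, and 6 spots of that array had more local background than signal. Without those spots the fitted mean was 15.9 and the members' median difference 0.16, and every family and list median was above 0.

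Counted gene by gene, 36 of 58 members (62.1%) were above both wild-type arrays on knockout 1, beside 37.9% of all genes, and 12 (20.7%) were below both, beside 34.4%. On knockout 2 the counts ran the other way. There 16 members (27.6%) were above both wild-type arrays, beside 33.6% of all genes, and 21 (36.2%) were below both, beside 26.6%. Knockout 1 was at least 2-fold above the wild-type mean for 9 members (15.5%), beside 3.72% of all genes: Aldh1a1, Aldh1a7, Aldh3b1, Akr1b7, Akr1b8, Akr1c12, Dhrs1, Dhrs4 and Rdh9. It was at least 2-fold below for 3 members (5.17%), beside 6.38% of all genes: Aldh1a2, Aldh1l2 and Cbr2. These counts compare a single array with 2 others and carry no test.

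**Figure D1:**
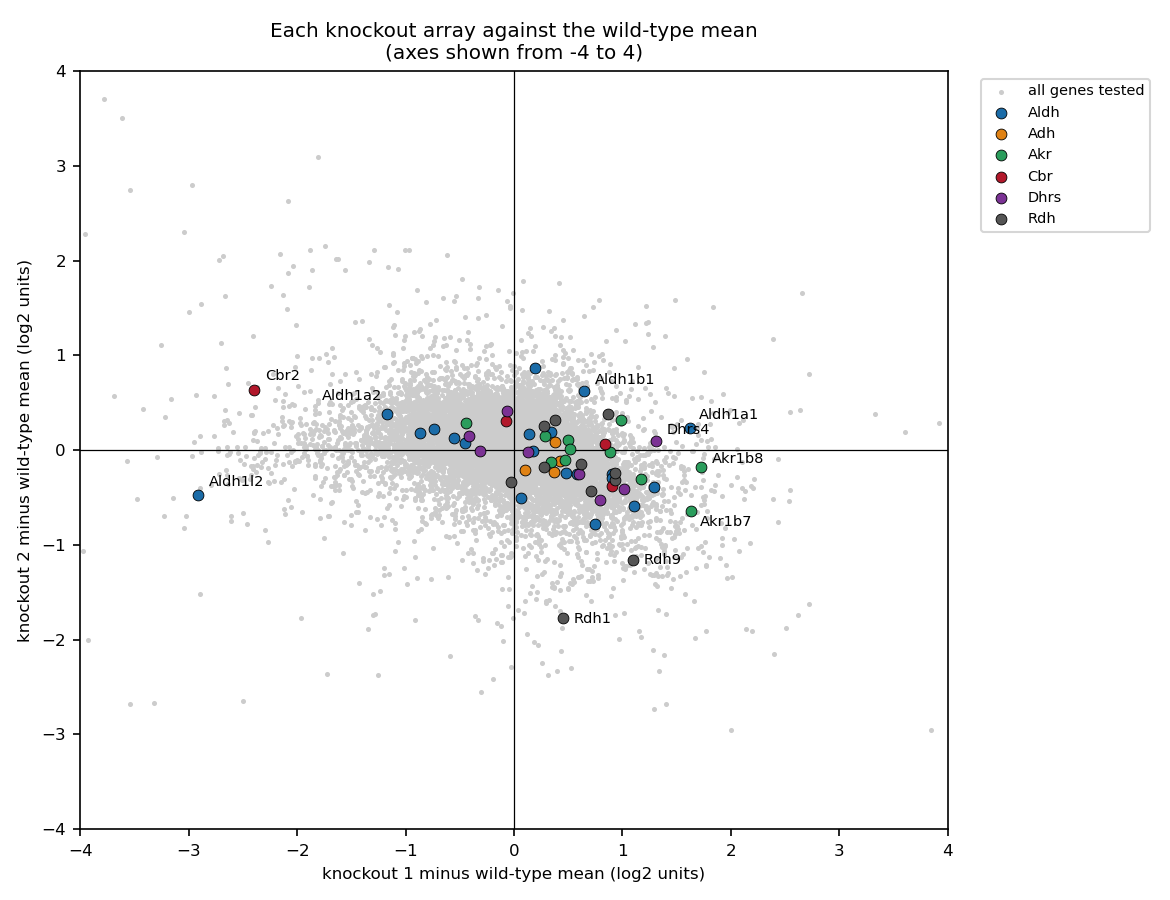
Log2 level on knockout 1 (x axis) and knockout 2 (y axis), each minus the mean of the wild-type arrays, for all genes tested (grey) and the 58 members coloured by family; 23 genes lie outside the axes. Most members lie to the right of 0 on the x axis (median 0.46) and around 0 on the y axis (median -0.06).

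Both knockout arrays were above both wild-type arrays for 8 of 58 members (13.8%), beside 8.66% of all genes: Aldh1a1, Aldh1b1, Akr1b10, Akr1c14, Akr1c19, Rdh11, Rdh13 and Rdh14. For 0 members both knockout arrays were below both wild-type arrays, beside 6.09% of all genes. Which members stood clear depended on the scaling. Under median scaling Akr1c19, Aldh1b1 and Rdh11 dropped out and Cbr4 and Dhrs13 came in, and under quantile scaling Aldh1b1 and Rdh11 dropped out and Dhrs13 came in. Akr1c14, Rdh13 and Rdh14 stood clear under both and also under normexp without the 6 spots of knockout 2, where the count was 4 and Rdh16 was the fourth.

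**Figure D2:**
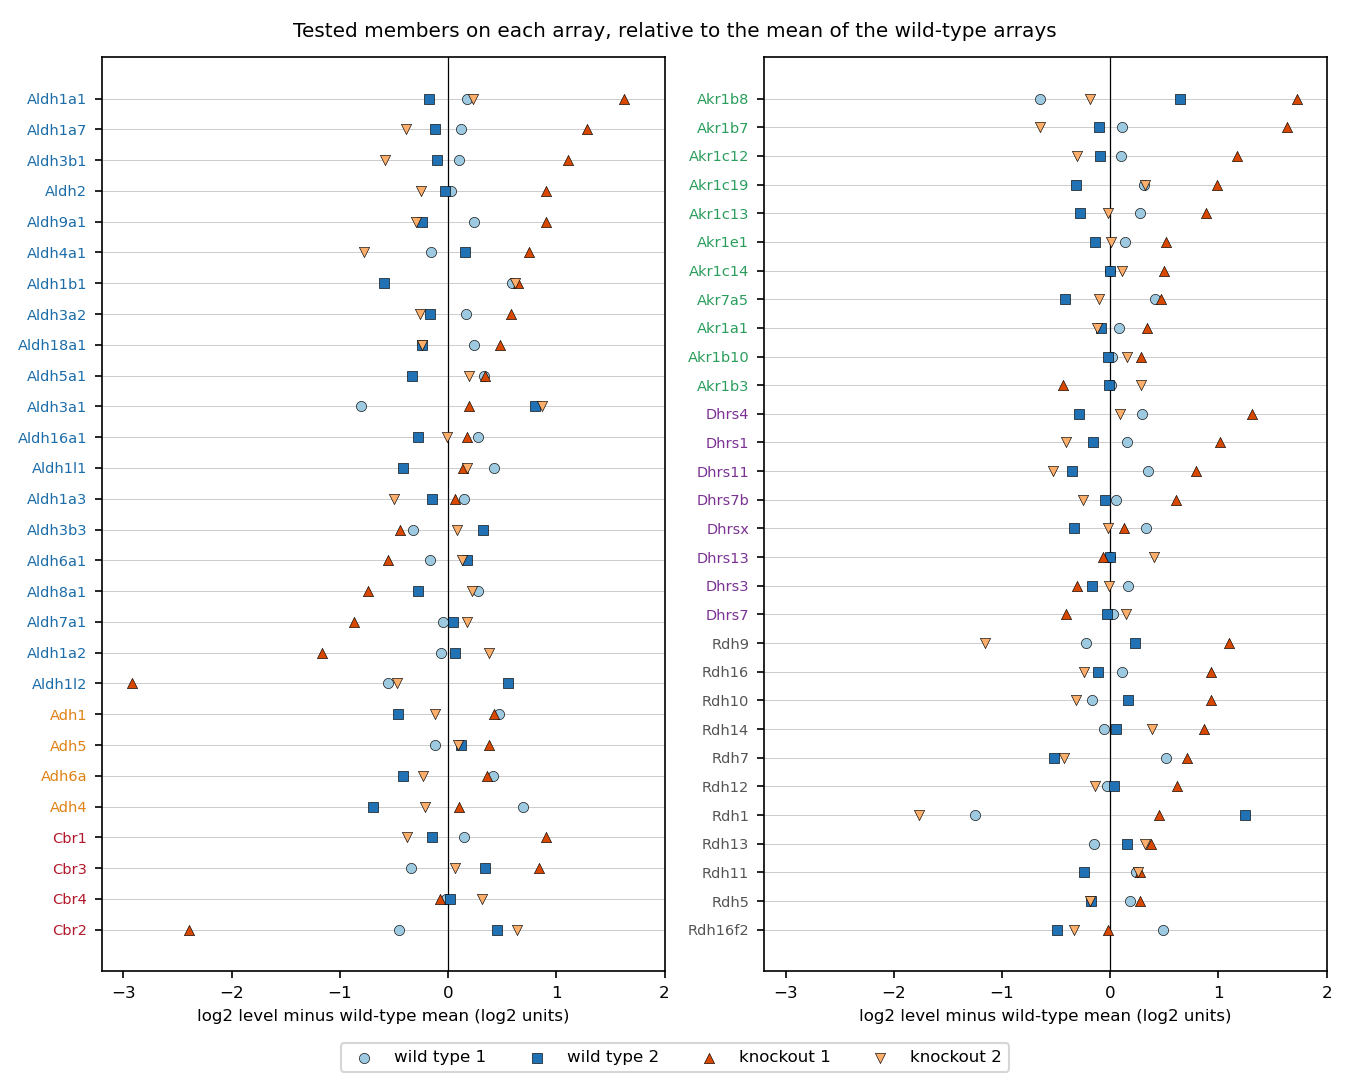
Log2 level of each tested member on each array minus the mean of the wild-type arrays, ordered within each family by knockout 1, with gene names coloured by family. Knockout 1 lies to the right of both wild-type arrays for 36 of 58 members, and Cbr2 and Aldh1l2 lie far to its left.

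Among the aldehyde dehydrogenases, 20 of 21 on the array were tested and none passed the test. Their median difference was 0.14, and 12 of 20 were above 0, beside 56.2% of all genes. Knockout 1 was above both wild-type arrays for 10, beside 37.9% of all genes, and below both for 6, beside 34.4%. Aldh1a1, the cytosolic enzyme that oxidises retinal to retinoic acid, had levels of 4.98 and 4.63 on the wild-type arrays and 6.43 and 5.04 on the knockout arrays. Both knockout arrays were above both wild-type arrays, but knockout 2 exceeded wild type 1 by far less than the wild-type arrays differed. The difference was 0.93 ± 0.50 (SE, n = 2 arrays a genotype), a 1.90-fold higher mean in the knockout, with a 95% interval of -0.30 to 2.15 and a limma adjusted p of 1.00. Within the shared slide it was 1.80. Aldh1a7, its rodent-specific neighbour on chromosome 19, read 2.24 and 1.99 in the wild type and 3.40 and 1.72 in the knockout. For this gene the knockout arrays lay on either side of the wild type. Whether probes of such close copies also bind each other's RNA was not tested.

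The other retinal-oxidising enzymes did not share this order. Aldh1a2, the retinal dehydrogenase of mesenchyme and of some immune cells, read 0.99 and 1.13 in the wild type, -0.11 on knockout 1 and 1.44 on knockout 2. Relative to the wild-type mean it was -1.17 on knockout 1 and 0.38 on knockout 2. Aldh1a3, another enzyme of this step, read 1.02, 0.73, 0.94 and 0.38 on wild type 1 and 2 and knockout 1 and 2, and its genotypes overlapped. Aldh1b1, a mitochondrial enzyme active on acetaldehyde, read 2.36 and 1.18 in the wild type and 2.42 and 2.39 in the knockout. The knockout arrays were close together and just above wild type 1, while wild type 2 was far below. Its difference was 0.63 ± 0.42 (SE) with a limma adjusted p of 1.00, and it was 0.04 without wild type 2, 1.22 without wild type 1 and 1.24 within the shared slide.

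The folate-linked members differed from each other. Aldh1l1, the cytosolic formyltetrahydrofolate dehydrogenase, read 4.22 and 3.38 in the wild type and 3.94 and 3.97 in the knockout, so that both knockout arrays lay between the wild-type arrays. Aldh1l2, its mitochondrial counterpart, read -3.18 and -2.07 in the wild type, -5.55 on knockout 1, where its probe was not well above background, and -3.10 on knockout 2. Knockout 1 alone was low. The difference was -1.70 ± 0.86 (SE), with a 95% interval of -3.78 to 0.39 and a limma adjusted p of 1.00. Without knockout 2 the value was -2.92 with a limma adjusted p of 0.0111, and within the shared slide it was -3.47. The size of these values rests on a signal at background: with normexp correction, with or without the 6 spots of knockout 2, knockout 1 was -0.88 relative to the wild-type mean.

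Knockout 1 was the highest array and knockout 2 the lowest for Aldh2, Aldh9a1 and Aldh3b1. Aldh2, the main acetaldehyde dehydrogenase, read 1.64 and 1.59 in the wild type, 2.52 on knockout 1 and 1.37 on knockout 2. Aldh9a1, which acts on aminoaldehydes including a carnitine precursor, read 2.75, 2.26, 3.41 and 2.21 in the same order. Aldh3b1, an enzyme for lipid-derived aldehydes, read 1.79, 1.59, 2.79 and 1.1. Aldh4a1 of proline breakdown and the fatty aldehyde dehydrogenase Aldh3a2 had the same order, at 0.75 and 0.58 above the wild-type mean on knockout 1 and -0.78 and -0.26 on knockout 2. Aldh16a1, an atypical member of the family, read 4.87, 4.32, 4.77 and 4.58, and its genotypes overlapped. Aldh5a1, which clears a product of the transmitter GABA, was 0.34 and 0.19 above the wild-type mean on knockout 1 and 2, and Aldh18a1 of proline synthesis was 0.48 and -0.24.

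For Aldh6a1, Aldh7a1 and Aldh8a1, chosen after their values were seen, knockout 1 was the lowest array. On knockout 1, Aldh6a1 of valine breakdown was -0.56, Aldh7a1 of lysine breakdown -0.87 and Aldh8a1 of tryptophan breakdown -0.74 relative to the wild-type mean, whereas on knockout 2 they were 0.13, 0.18 and 0.22. A second probe of Aldh7a1 was not well above background on any array, and a second probe of Aldh6a1 gave -0.74 and 0.18 on the knockout arrays. Aldh3b3, a paralogue of Aldh3b1, was -0.45 and 0.08. Aldh3a1, an enzyme abundant in stomach and cornea, read -1.37, 0.24, -0.37 and 0.30. Its second probe read -5.88, -0.82, -6.94 and -0.22, a much wider spread in which wild type 2 and knockout 2 were high. The 6 stomach markers, summed on the linear scale, stood at 33.8, 485, 2.02 and 870 in the same array order, with 1 of them (Atp4a) above background on no array. Their part in the Aldh3a1 values was not tested.

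The alcohol dehydrogenases showed no shared order by genotype. Of 5 on the array 4 were tested, all in a block on chromosome 3, and their median difference was 0.11 at the 75th percentile scaling and -0.02 under quantile scaling. Adh1, the class I enzyme for ethanol and retinol, read 6.35 and 5.42 in the wild type and 6.31 and 5.77 in the knockout. Adh6a read 7.82, 7.0, 7.77 and 7.18. Adh4, an enzyme with retinol activity, read 2.98, 1.60, 2.39 and 2.08. In all 3 genes, at the 75th percentile scaling, the knockout arrays lay between wild type 1, the highest array, and wild type 2, the lowest. This order depended on the scaling. Of the 4 tested genes, 1 was above both wild-type arrays on knockout 1 here, beside 37.9% of all genes. Under median and under quantile scaling it was 3 of 4, beside 48.5% and 37.7% of all genes. The differences were 0.15 ± 0.44, 0.07 ± 0.46 (-0.10 under quantile scaling) and -0.05 ± 0.48 (SE; 0.00 under median scaling), with 95% intervals of -0.91 to 1.22, -1.05 to 1.19 and -1.22 to 1.11. Within the shared slide, where wild type 2 was the low wild-type array, they were 0.89, 0.78 and 0.80. Adh5, the formaldehyde-clearing class III enzyme, was well above background on 2 of 4 arrays, with levels from -4.89 to -4.39. Adh7, the class IV enzyme of the upper digestive tract, was above background on 1 array and was not tested.

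Nearly all tested aldo-keto reductases lay above the wild type on knockout 1. Of 16 on the array 11 were tested. On knockout 1, 10 of 11 were above both wild-type arrays, beside 37.9% of all genes, the exception being Akr1b3. Without the background filter it was 12 of 16, beside 31.4% of all genes. The median of the tested genes was 0.51 above the wild-type mean on knockout 1 and -0.02 on knockout 2. There 4 of 11 were above both wild-type arrays, beside 33.6% of all genes. The median difference was 0.30, and it was 0.36 under median and 0.32 under quantile scaling. No member of the family passed the test.

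On chromosome 6, Akr1b3, Akr1b8, Akr1b10 and Akr1b7 follow each other in the RefSeq gene order. Akr1b7, which reduces lipid-derived and steroid side-chain aldehydes, read 2.26 and 2.05 in the wild type, 3.79 on knockout 1 and 1.51 on knockout 2. Akr1b8 read 2.83, 4.13, 5.21 and 3.30. Both were highest on knockout 1, and the gap between the knockout arrays was 2.28 for Akr1b7 and 1.91 for Akr1b8. Their differences of 0.49 ± 0.70 and 0.77 ± 0.71 (SE) had limma adjusted p of 1.00. Without knockout 2 the Akr1b7 value was 1.63 with a limma adjusted p of 0.0159, while without knockout 1 it was -0.65. Within the shared slide Akr1b7 differed by 1.74 and Akr1b8 by 1.08. Akr1b10, a reductase of retinal and dietary aldehydes, read 1.16 and 1.13 in the wild type and 1.43 and 1.30 in the knockout. Its difference was small at 0.22 ± 0.26 (SE), and a second probe gave 0.18. Akr1b3, the mouse aldose reductase, read 2.55, 2.53, 2.10 and 2.83, low on knockout 1 and high on knockout 2, and a second probe gave -0.58 and 0.11 there relative to the wild-type mean.

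In the gene order above, Akr1b10 lies between Akr1b8 and Akr1b7. The Akr1b7 and Akr1b8 promoters are shown because these genes lay furthest above the wild type on knockout 1 among the family's tested members. They are the 150 bases before the annotated start in RefSeq GRCm38.p6, printed 5′ to 3′ on the plus strand, at chr6:34412212-34412361 for Akr1b7 and chr6:34353996-34354145 for Akr1b8. Capitals mark GCGTG or its reverse complement CACGC, the core letters of the binding motif of the aryl hydrocarbon receptor.
Akr1b7: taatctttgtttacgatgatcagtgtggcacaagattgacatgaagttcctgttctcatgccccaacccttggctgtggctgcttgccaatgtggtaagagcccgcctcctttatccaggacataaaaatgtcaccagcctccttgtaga
Akr1b8: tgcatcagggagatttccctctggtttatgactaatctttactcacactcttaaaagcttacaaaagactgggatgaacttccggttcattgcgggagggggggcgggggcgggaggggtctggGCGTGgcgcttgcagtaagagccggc
Aligned to each other they had an identity of 45.4%, within the 40.8% to 57.4% found for 325 pairs of named members' promoters lying on different chromosomes, whose median was 48.6%.

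On chromosome 13 the Akr1c genes form a cluster with Akr1e1, and 5 of its genes were tested. All 5 were above both wild-type arrays on knockout 1, beside 37.9% of all genes, by 0.50 to 1.17 over the wild-type mean. On knockout 2 they ran from -0.30 to 0.32. Akr1c19 read 3.66 and 3.03 in the wild type and 4.33 and 3.66 in the knockout. Knockout 2 and wild type 1 were nearly equal, and the difference was 0.65 ± 0.37 (SE) with a 95% interval of -0.25 to 1.56. It was 1.30 within the shared slide, where Akr1c13 differed by 1.16. Akr1c14, a steroid dehydrogenase, read -1.14 on both wild-type arrays and -0.64 and -1.03 in the knockout. The genotypes did not overlap, with a difference of 0.30 ± 0.30 (SE). Akr1c13 read 5.57, 5.02, 6.18 and 5.28, and Akr1c12 read 2.09, 1.89, 3.16 and 1.69. For both, knockout 1 alone was high. Akr1a1, the aldehyde reductase of vitamin C synthesis in mice, read 5.18, 5.01, 5.44 and 4.97, and its difference of 0.11 turned to -0.01 under quantile scaling. Akr1e1 and the aflatoxin aldehyde reductase Akr7a5 were 0.51 and 0.47 above the wild-type mean on knockout 1 and 0.01 and -0.10 on knockout 2.

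The promoters of Akr1c13 and Akr1c19 are shown because they were the most alike among the neighbouring pairs compared, with an identity of 64.0%. The 150 bases before the start lie at chr13:4191037-4191186 and chr13:4233590-4233739 of GRCm38.p6, both on the plus strand. These stretches hold none of the motifs searched, but the Akr1c19 gene has an NRF2 half-site core, described below, with its first base 7 bases past the start and so outside the stretch printed.
Akr1c13: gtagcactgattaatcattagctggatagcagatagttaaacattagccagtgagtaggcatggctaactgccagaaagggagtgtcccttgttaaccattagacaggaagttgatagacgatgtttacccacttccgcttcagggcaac
Akr1c19: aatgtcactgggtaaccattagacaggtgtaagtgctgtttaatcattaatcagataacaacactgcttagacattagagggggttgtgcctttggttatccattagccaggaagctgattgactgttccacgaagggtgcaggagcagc
The same stretches of Akr1c14 and Akr1c19 had an identity of 50%, and those of Akr1c13 and Akr1c14 one of 52.3%.

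Carbonyl reductases were 4 of 4 tested, and none passed the test. Cbr1 and Cbr3, neighbours on chromosome 16 that reduce quinones and prostaglandins, were above both wild-type arrays on knockout 1 by 0.90 and 0.84 over the wild-type mean. Cbr1 read 4.87, 4.57, 5.62 and 4.34, and Cbr3 read 3.25, 3.92, 4.43 and 3.65. On knockout 2, Cbr1 was below both wild-type arrays and Cbr3 lay between them. Cbr4, a mitochondrial reductase of fatty acid synthesis, read 0.53, 0.57, 0.48 and 0.87. Cbr2, known from lung and from macrophages and fat, read -1.39 and -0.49 in the wild type, -3.34 on knockout 1 and -0.31 on knockout 2. It had the largest gap between the knockout arrays of all 58 members, at 3.03. The difference was -0.88 ± 0.95 (SE), and it was -2.39 with a limma adjusted p of 0.00648 without knockout 2, 0.64 without knockout 1 and -2.85 within the shared slide. With normexp correction knockout 1 was -1.39 relative to the wild-type mean. A second, dimmer Cbr2 probe gave -0.60 and 0.59 on the knockout arrays.

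Of the Dhrs genes 8 of 11 were tested, and none passed the test. Their median was 0.36 on knockout 1 and -0.02 on knockout 2 relative to the wild type. Dhrs3, which returns retinal to retinol and is a known target of retinoic acid, read 4.26 and 3.93 in the wild type and 3.78 and 4.09 in the knockout. Knockout 1 was the lowest array and knockout 2 lay between the wild-type arrays, with a difference of -0.16 ± 0.30 (SE) and a 95% interval of -0.89 to 0.57. Dhrs7 read 3.19, 3.14, 2.76 and 3.32 and was likewise low on knockout 1. Dhrs4, a peroxisomal reductase of retinal and other carbonyls, read 0.27, -0.31, 1.30 and 0.08. Its difference of 0.70 ± 0.46 (SE) rested on knockout 1, since knockout 2 lay between the wild-type arrays. Dhrs1 was 1.02 above the wild-type mean on knockout 1 and -0.41 on knockout 2, and Dhrs11 was 0.80 and -0.53. Dhrs7b, a peroxisomal enzyme of ether lipid synthesis, read 2.59, 2.48, 3.14 and 2.29. Dhrs13 was -0.07 and 0.41 relative to the wild-type mean on knockout 1 and 2, and Dhrsx was 0.13 and -0.02.

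Of the retinol dehydrogenases 11 of 14 were tested. On knockout 1, 9 of 11 were above both wild-type arrays, beside 37.9% of all genes, and 0 below both, beside 34.4%. Their median was 0.62 on knockout 1 and -0.24 on knockout 2, where 6 of 11 were below both wild-type arrays, beside 26.6% of all genes. Those below included Rdh1 and Rdh16, which were not well above background on knockout 2. Among the 9 genes well above background on all 4 arrays, the medians were 0.62 and -0.18. Of these 9, 4 were below both wild-type arrays on knockout 2, beside 3245 of 13052 genes. Rdh14, which acts on retinol and retinal, had the smallest p of all members. It read 0.69 and 0.80 in the wild type and 1.61 and 1.13 in the knockout, so that both knockout arrays were clear of the wild type. The difference was 0.63 ± 0.29 (SE), 1.54-fold, with a 95% interval of -0.08 to 1.34 and, in limma, an unadjusted p of 0.0744 and an adjusted p of 1.00. Rdh13, a mitochondrial enzyme, read -1.88 and -1.57 in the wild type and -1.35 and -1.41 in the knockout, with a difference of 0.35 ± 0.31 (SE). Rdh11, a microsomal retinal reductase, read 1.09 and 0.61 in the wild type and 1.12 and 1.1 in the knockout. Knockout 2 exceeded wild type 1 by very little there, and the difference was 0.27 ± 0.29 (SE).

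The Rdh14 promoter is shown because it is the only one among the non-overlapping members to hold both motifs in the 150 bases before the start. It lies at chr12:10390630-10390779 of GRCm38.p6 on the plus strand, and capitals mark the core of an NRF2 half-site (TGACNNNGC, here as its reverse complement, first base at -102) and GCGTG (first base at -8).
Rdh14: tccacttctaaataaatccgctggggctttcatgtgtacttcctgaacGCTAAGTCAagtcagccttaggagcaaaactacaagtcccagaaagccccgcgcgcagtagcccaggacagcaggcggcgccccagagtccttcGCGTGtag
A match of letters does not show binding.

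Rdh12, the neighbour of Rdh11 on chromosome 12, read 1.72, 1.78, 2.37 and 1.61. On chromosome 10, 5 genes of an Rdh block were tested. Of these, 3 were above both wild-type arrays on knockout 1 and 0 on knockout 2, beside 37.9% and 33.6% of all genes. Rdh7 read 2.96, 1.93, 3.16 and 2.02, and Rdh9 read -1.77, -1.32, -0.45 and -2.70. For Rdh9 the knockout arrays lay far to either side of the wild type, 2.25 apart, so that the difference of -0.03 (0.03 under median scaling) stood for values of 1.1 and -1.16. Within the shared slide it was 0.87, and for Rdh7 it was 1.23 beside a difference of 0.14. Rdh1, a retinol dehydrogenase, read -4.71 and -2.22 in the wild type and -3.01 and -5.23 in the knockout, and was well above background only on wild type 2 and knockout 1, the arrays that shared a slide. Rdh10, the enzyme of retinal synthesis in embryos, read -1.56, -1.23, -0.47 and -1.71, highest on knockout 1 and lowest on knockout 2. Rdh16, also in the chromosome 10 block, was 0.94 and -0.24 relative to the wild-type mean, the latter not well above background, and its neighbour Rdh16f2 was -0.02 and -0.33. Rdh5, known from the visual cycle, was 0.27 and -0.18.

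**Figure D3:**
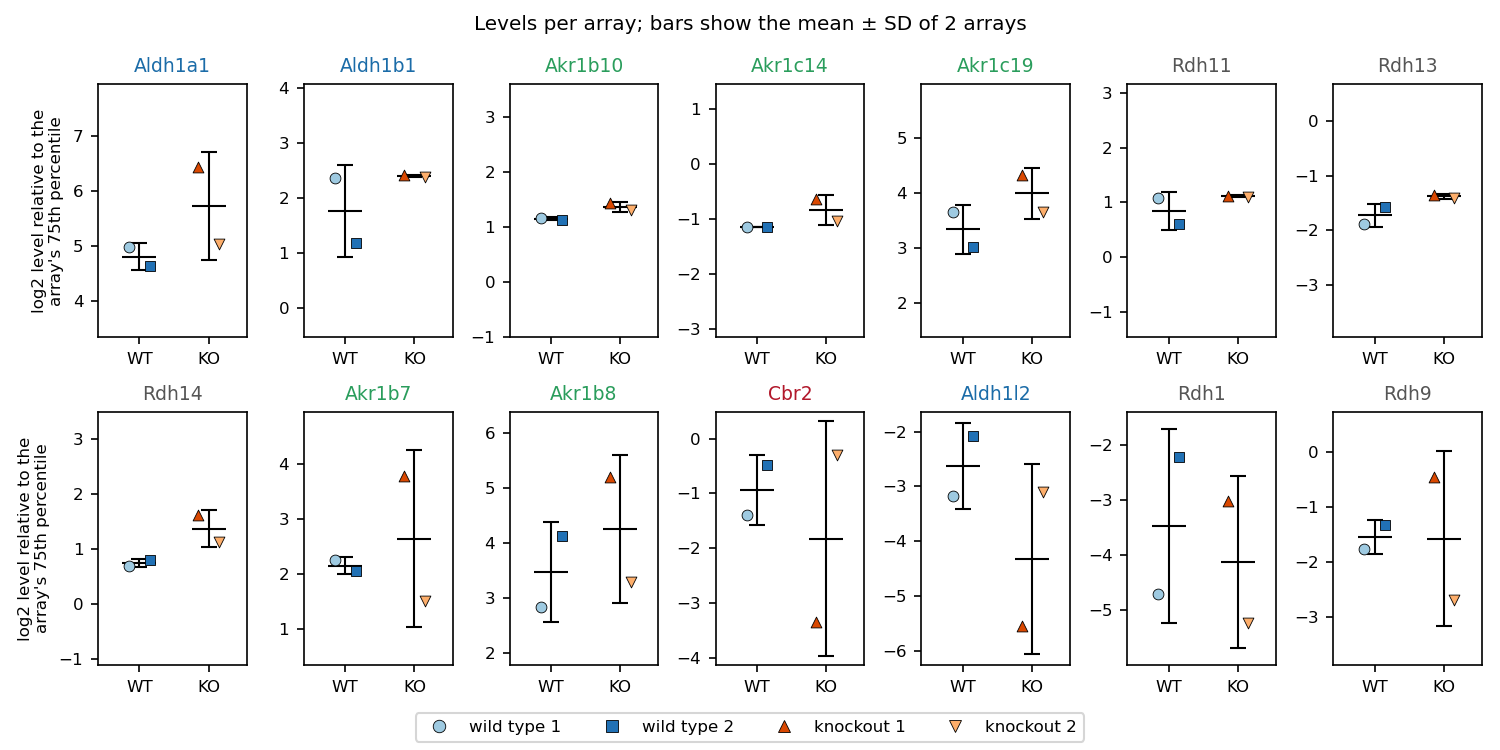
Log2 level relative to the array's 75th percentile on each array for the 8 members whose genotypes did not overlap and the 6 with the largest gap between knockout arrays; lines show the mean ± SD of 2 arrays, and all panels span the same number of log2 units. In the last 6 panels the knockout arrays lie 1.91 (Akr1b8) to 3.03 (Cbr2) apart.

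The 13 members on the array that were not tested were above background on at most 1 array. They included Akr1c18, Akr1c21 and Akr1d1 of steroid metabolism, Dhrs9, Dhrs2, Dhrs7c, Rdh8, Rdh19, Akr1cl, Aldh3b2 and the pseudogene Rdh18-ps. Akr1c6, a steroid dehydrogenase abundant in liver, read -1.89 on wild type 1, where it was well above background, and -5.87, -5.43 and -6.12 on the other arrays. The 8 liver markers summed to 12.1 on wild type 1 and to 2.48, 0.79 and 3.30 on wild type 2, knockout 1 and knockout 2. Only 2 of the 8 were well above background on all 4 arrays. Ttr had log2 levels of 0.63, 1.16, -1.16 and 1.14 in the same array order, and the other liver markers were highest on wild type 1. The part of liver RNA in the Akr1c6 value was not tested.

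Motifs were searched on both strands in 250 bases before to 50 bases after each start, in the RefSeq promoters of 49 tested members. The NRF2 half-site core TGACNNNGC was in 5 of 49 (10.2%), namely Adh6a, Akr1c19 (after the start), Aldh1a2, Aldh9a1 and Rdh14, beside 14.0% of 27025 genes. GCGTG was in 19 of 49 (38.8%), beside 35.2% of genes. Exact pairs of the hexamers AGGTCA or AGTTCA were also searched. The spacings were 5 and 2 bases for retinoic acid receptors and 4 bases for PXR and CAR, and no others. These pairs were in 0 of 49, beside at most 0.0148% of genes. Pairs this rare would be missing from almost any 49 genes, so this count says nothing about the members. For the NRF2 core and GCGTG the members' shares were near those of all genes.

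Genes of the same pathways outside the families were read in 4 lists, with 0 genes called in any of them by limma. The lists were written with earlier results of these data known. Over all genes, 56.2% of differences were above 0. Of 19 tested genes of retinoid handling 8 were above 0, with a median difference of -0.02 that turned to 0.04 under median scaling. Rbp4, the plasma retinol carrier, read 0.91, 0.60, -0.86 and 0.33, and Cyp26b1, which degrades retinoic acid, read 0.32, -0.68, -2.21 and -0.59. Both knockout arrays were below both wild-type arrays for Rbp4 and overlapped them for Cyp26b1. Rbp7, a cellular retinol-binding protein, read 2.05, 0.89, 2.23 and 2.18, above both wild-type arrays. Of 19 other enzymes that make or remove aldehydes and alcohols 12 were above 0, with a median of 0.13. Glo1, which clears methylglyoxal, read 2.37, 2.14, 2.95 and 2.43, and Aoc1, the diamine oxidase of the gut, read 4.82, 4.15, 5.08 and 4.68. Cyp2e1, which oxidises ethanol, was well above background only on wild type 1 (-0.47) and knockout 2 (-2.68).

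NRF2 and its targets outside the families had 28 of 29 tested genes above 0 and a median of 0.31. PXR and CAR with their targets had 13 of 14 and a median of 0.30, beside 56.2% of all genes above 0. Under quantile scaling the counts were 24 of 29 and 13 of 14. Under normexp, with its background mean of -335 on knockout 2, they were 9 of 29 and 8 of 14. Without the 6 spots of knockout 2 they were 26 of 29 and 14 of 14. These lists share Abcc2, and the PXR list shares Rxra with that of retinoid handling. On knockout 1, 24 of 29 and 13 of 14 were above both wild-type arrays, beside 37.9% of all genes, with medians of 0.73 and 1.1. On knockout 2 it was 8 of 29 and 2 of 14, beside 33.6% of all genes, with medians of 0.02 and -0.16. Both knockout arrays were above both wild-type arrays for 8 and 2 genes, again beside 8.66% of all genes. Gsta4 (3.16 and 3.49 against 4.26 and 4.0) and Gstm2 (4.02 and 4.13 against 4.73 and 4.79), glutathione transferases, were clear of the wild type on both knockout arrays. Gstm1 read 5.16 and 5.30 against 7.22 and 5.65. The carboxylesterase Ces2a read 6.22 on both wild-type arrays and 8.61 and 7.39 in the knockout, a difference of 1.78 ± 0.49 (SE), and had the smallest unadjusted p of the lists, 0.0104, with a limma adjusted p of 1.00. Abcb1a, a drug efflux pump, read 1.07, 0.80, 3.01 and 1.22, and Cyp2c55 read 0.10, 1.01, 4.48 and 0.85.

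Several of the 20 marker lists differed between the knockout arrays. On knockout 1, 9 of 10 absorptive enterocyte markers were above both wild-type arrays and their summed signal was 1040, beside 837 and 534 in the wild type. On knockout 2, 0 of 10 were above both, 6 of 10 were below both and the sum was 614. Smooth muscle markers were below both wild-type arrays on knockout 1 for 6 of 6 and above both on knockout 2 for 6 of 6, with sums of 172 and 197 in the wild type, 97.4 on knockout 1 and 298 on knockout 2. Fibroblast markers were below both on knockout 1 for 6 of 6, and on knockout 2 4 of 6 were above both and 1 below. Their sums were 34.9, 49.5, 28 and 56.7. Adipocyte markers summed to 2.98, 2.84, 1.74 and 5.21, with Plin1 and Lep above background on no array. Goblet cell markers had medians of 0.93 on knockout 1 and -0.11 on knockout 2 relative to the wild-type mean. Of these, 5 of 6 were above both wild-type arrays on knockout 1 and 0 of 6 on knockout 2. T cell markers had medians of 0.80 and -0.73 but were mixed on knockout 1, with 3 of 5 above both wild-type arrays and 1 below both. On knockout 2, 3 of 5 were below both and 0 above. Stomach markers had medians of -3.87 and 2.58, with 6 of 6 below both wild-type arrays on knockout 1. On knockout 2, 5 of 6 were above both and 1 below. Proximal small intestine markers had medians of 0.73 and -0.30, and enteroendocrine markers 0.51 and -0.21. Distal small intestine markers had medians of 0.84 and 0.32, with Osr2 above background on no array. Of these distal markers, 4 of 6 were above both wild-type arrays on knockout 1 and 1 below both. On knockout 2, 2 of 6 were above both and 2 below. Crypt and stem markers had medians of -0.88 and 0.13, with 3 of 5 below both wild-type arrays on knockout 1 and 1 above both. Some other lists did not lie high on one knockout array and low on the other, or did so by little. Among these, the medians were -0.27 and -0.35 for B and plasma cell markers and -0.28 and -0.11 for endothelial markers. They were -0.12 and -0.57 for macrophage and dendritic cell markers and -0.13 and 0.09 for Paneth cell markers.

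Of the 36 members above both wild-type arrays on knockout 1, 19 were below both on knockout 2, 9 lay between them and 8 were above both. Among the 5449 genes above both on knockout 1, 43.1% were below both on knockout 2 and 22.9% above both, beside 52.8% and 22.2% of the members. Of the 12 members below both on knockout 1, 7 were above both on knockout 2 (Akr1b3, Aldh1a2, Aldh7a1, Cbr2, Cbr4, Dhrs13 and Dhrs7) and 0 below both. That is 58.3%, beside 48.1% of the 4956 such genes. The part of cell makeup in the members' values was not tested, and in bulk tissue fewer cells of a type and less RNA per cell cannot be told apart.

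**Figure D4:**
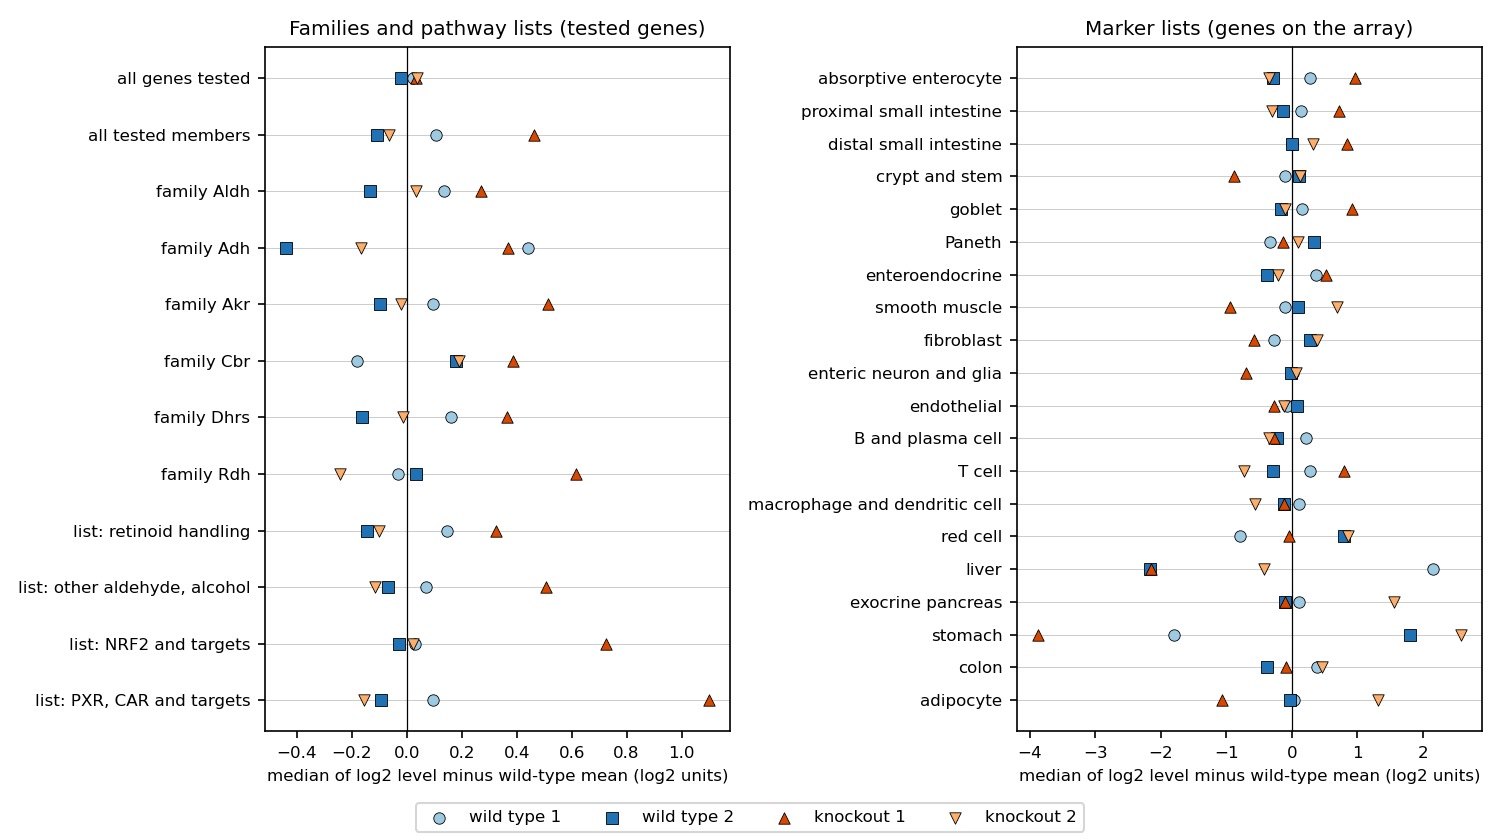
Median over genes of log2 level minus the wild-type mean on each array, for the families and pathway lists (left) and for marker lists (right, on a wider axis). Knockout 1 lies to the right for every family (0.27 to 0.62) and for absorptive enterocyte markers (0.96), and to the left for smooth muscle markers (-0.94).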

How the data were processed

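Small-intestine RNA of 2 wild-type and 2 Cyp3a-/- samples, grouped by the genotype in the labels, was read on 1-colour Agilent arrays with Agilent Feature Extraction 11.5.1.1, per the submitters' processing notes. The deposited spot intensity is background-subtracted and detrended, per the file headers, and not scaled between arrays. The authors' value table holds log2 values that matched, within 0.01 over 39408 probes, the log2 processed signal relative to the 75th percentile of the array and the median of the probe over arrays; its column medians were 0.05 and -0.10 in the wild type and -0.11 and 0.12 in the knockout. The genome build of the array's annotation is not the build of the promoter sequences, which were used by gene symbol only.

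Spots flagged as outliers (91 to 129 per array) and control spots were dropped, log2 values of spots of the same probe were averaged, and each array was set to its 75th percentile. Accessions matched exactly 1 gene symbol in the RefSeq table of GRCm38.p6 for 28025 probes, and the other 11404 were left without a symbol. Probes well above background on at least 2 of 4 arrays were kept, with the probe of highest mean signal per gene. Genotypes were compared with limma 3.58.1 (lmFit, then eBayes with an intensity trend; R 4.3.3), Benjamini-Hochberg adjusted over all 14395 genes. The steps were tested on simulated data with 200 changed genes in 10 runs, where 9.7% of calls were false.

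Members' values are given for any past the threshold, the 3 of highest mean signal per family, those whose genotypes did not overlap and the 6 with the largest gap between knockout arrays (29 genes), and for the 3 genes of smallest p per list; other members are named with values after their values were seen. The members and all lists were chosen with earlier results of these data known. Of 71 members 58 had a RefSeq promoter. Normexp used the median spot signal, as the files hold no mean spot signal, with an offset of 50. Alternatives were the scaling, background correction, filter, probe rule, variance model, replicate block, slide and each array left out. The number of arrays limits the precision.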

Additional observations from a re-analysis of the deposited data

How the results depend on the processing

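Over all genes the counts of 0 higher and 6 lower became 3 and 10 under normexp, 0 and 0 when genes had to be above background on all 4 arrays, and 0 to 135 and 0 to 298 with an array left out, both highest without knockout 2. No member was called under any setting with all 4 arrays; with an array left out, 0 to 1 members were called higher and 0 to 2 lower, all without knockout 2, where the lone knockout array is assumed to vary like the wild type. Members clear of the wild type numbered 8 above and 0 below. They numbered 7 and 0 under median or quantile scaling, 10 and 0 without a background filter, 6 above and 6 below under normexp, and 4 and 1 under normexp without the 6 spots of knockout 2, a setting chosen after seeing the data. With an array left out, where fewer arrays must order, 12 to 36 were above and 4 to 21 below. The members' median of 0.17 ran from 0.12 to 0.23 under the other scalings, filters and variance models, was -0.09 under normexp and 0.62 within the shared slide, and ran from -0.06 (without knockout 1) to 0.46 (without knockout 2).

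The replicate numbers of the labels, fitted as a block, gave 6 genes higher and 26 lower over all genes and 0 and 0 members. Deviations of same-numbered arrays had a correlation of 0.05, and with 2 pairs the numbers are not shown to pair the samples. The correlation within slides could not be estimated from 1 shared slide, so a random slide block was not run.

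Among the 29 members given in full, differences changed sign under normexp for Adh1 (-0.58), Adh6a (-0.62), Akr1a1 (-0.57), Akr1b10 (-0.19), Akr1c13 (-0.24), Aldh16a1 (-0.57), Aldh1l1 (-0.43), Aldh1l2 (0.20), Cbr1 (-0.35), Cbr3 (-0.20), Cbr4 (-0.10), Dhrs7b (-0.32), Rdh1 (0.73), Rdh11 (-0.11), Rdh12 (-0.23), Rdh7 (-0.32) and Rdh9 (0.73). The fitted background mean of knockout 2 in that setting was -335, and without its 6 spots only Rdh9 changed sign (0.17). Normexp also turned 10 of the other 29 tested members (Akr1e1, Akr7a5, Aldh2, Aldh3a2, Aldh3b1, Aldh5a1, Aldh8a1, Aldh9a1, Dhrs1 and Rdh5). Quantile scaling turned Adh6a (-0.10), Akr1a1 (-0.0076) and Aldh16a1 (-0.047), and median scaling Adh4 (0.0046), Rdh9 (0.030) and, among the others, Aldh4a1 (0.047). Within the shared slide 18 of the 29 moved by more than the spread between replicates. With an array left out, Adh1 ran from -0.31 to 0.62, Adh4 from -0.75 to 0.64, Adh6a from -0.34 to 0.48, Aldh16a1 from -0.19 to 0.36, Aldh1l1 from -0.26 to 0.58, Dhrs3 from -0.33 to 0.0091 and Rdh1 from -1.91 to 0.59, each end without a wild-type array. Lowest without knockout 1 and highest without knockout 2 were Akr1a1 (-0.13 to 0.34), Akr1b7 (-0.65 to 1.63), Akr1b8 (-0.18 to 1.73), Akr1c13 (-0.021 to 0.88), Cbr1 (-0.38 to 0.90), Dhrs7b (-0.25 to 0.60), Rdh7 (-0.43 to 0.71), Rdh9 (-1.16 to 1.1) and Rdh12 (-0.14 to 0.62), and the reverse held for Cbr2 (-2.39 to 0.64), Cbr4 (-0.070 to 0.31) and Dhrs7 (-0.41 to 0.15). Signal close to background limits Adh5, Aldh1l2, Rdh1 and Rdh16, each below it on at least 1 array.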
